A study of Homo sapiens with 6 samples.

Results

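The sodium-potassium ATPase is the membrane pump that moves sodium out of the cell and potassium in, at the cost of ATP. Its alpha subunit carries the catalytic cycle, and its beta subunit is a glycoprotein that the alpha subunit needs in order to fold and to reach the plasma membrane. Small FXYD proteins associate with the pair and modulate its transport. The beta subunit also takes part in adhesion between cells, and most tissues use the product of *ATP1B1*, while *ATP1B2* (also named AMOG) is known from glia and *ATP1B3* (CD298) is widely expressed.

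The members described are the 3 beta subunit genes *ATP1B1*, *ATP1B2* and *ATP1B3*, out of 28395 genes in the count table. *ATP1B1* was chosen by its fall after KIFC1 knockdown, so its change is given as a description with no test, and the other 2 genes were included as its family members, whatever their own change. RNA was sequenced from H146 cells (NCI-H146 in the cell line label and NIH-H146 in the sample titles, an established small-cell lung cancer line) on day 2 after transfection. There were 3 libraries with negative control siRNA, labelled WT, and 3 libraries with 1 siRNA against *KIFC1* (siKIFC1, named KD_2 in the library labels), labelled KIFC1 knockdown. *KIFC1* encodes a kinesin that clusters centrosomes. All libraries came from transiently transfected cultures of 1 cell line, labelled as biological replicates, and the labels do not say how the cultures were separated.

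The libraries held 15392374 to 17754458 counts each, and mitochondrially encoded genes took from 8.34% to 13.1% of them. *KIFC1* had 4 to 14 counts per library with control siRNA and 0 or 1 with siKIFC1. Of the markers of neuroendocrine SCLC, 7 of 8 passed the filter on low counts and their summed level was 1972 to 2088 CPM (counts scaled to library size by TMM, the trimmed mean of M values) with control siRNA and 2029 to 2368 CPM with siKIFC1. *NEUROD1* was the member that did not pass. The summed levels of the other marker lists were at most 14.6 CPM for tuft-like SCLC, 2.96 CPM for non-neuroendocrine SCLC, 17.0 CPM for fibroblasts, 6.78 CPM for leukocytes and 5.68 CPM for endothelium.

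*ATP1B1* (NCBI gene ID 481) lies on the plus strand of chromosome 1 of GRCh38, from 169106690 to 169132719, and its canonical transcript in GENCODE 44 has 6 exons. *ATP1B2* (NCBI gene ID 482) lies on chromosome 17 from 7646627 to 7657770, and *ATP1B3* (NCBI gene ID 483) on chromosome 3 from 141876643 to 141926549, each with 7 canonical exons on the plus strand. The *ATP1B1* and *NME7* genes lie on opposite strands and overlap at their 3′ ends, and in GENCODE 44, where some *ATP1B1* transcripts run on into *NME7*, they share 178462 bases. The strand setting of the counting is not given in the sources used here. *NME7* had 167 to 241 counts per library, with a log2 fold change of -0.02 (standard error 0.16) after knockdown. Reads of the pseudogenes *ATP1B1P1* and *ATP1B3P1* were not analysed here, and how reads that align to several places were counted is not given.

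Short words were looked up in the 3′ untranslated region (UTR) of the 3 mRNAs. An earlier scan of these same libraries had linked the word GAGATCT to lower genes and the word GCAACC to higher genes, so neither is independent of the fold changes. Both were searched on the mRNA strand of the canonical 3′ UTRs. The *ATP1B1* 3′ UTR of 1164 bases held 1 copy of GAGATCT, starting at base 747 of the UTR (chromosome 1, 169132302 to 169132308). That stretch lies outside *NME7*, whose 3′ end is at 169132531. The *ATP1B2* 3′ UTR (1875 bases) and the *ATP1B3* 3′ UTR (848 bases) held 0 copies, and no canonical 3′ UTR of the 3 genes held GCAACC. Of 1985 tested genes whose 3′ UTR was within 25% of the length of that of *ATP1B1*, 96 held GAGATCT (4.84%), against 8.97% of the 12970 tested genes whose 3′ UTR had 50 bases or more. Within 25% of the length of the *ATP1B2* and *ATP1B3* 3′ UTRs the shares were 7.74% and 3.93%, so 0 copies is the common case. The *KIFC1* mRNA of 2391 bases holds the word once, in its coding sequence. The share of whole mRNAs that hold the word was not counted, so this copy has no background beside it. Both places are shown because they are the only copies of the word in the canonical *ATP1B1* 3′ UTR and in the canonical *KIFC1* mRNA, with the word in capitals, 5′ to 3′ on the plus strand of GRCh38, at chr1:169132292-169132318 and chr6:33405472-33405498:
ATP1B1 3′ UTR: agctgtgtctGAGATCTggatctgccc
KIFC1 coding sequence: aagctacgtaGAGATCTacaatgagac

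Around the word the windows were equal over no longer run than its 7 bases. Of their 27 positions 10 held the same base, a count that by construction includes the 7 of the word. The sequence of the siRNA is not given in the sources used here. A match of a word is a description of the annotated sequence, and binding there was not measured.

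*ATP1B1* fell in every siKIFC1 library, *ATP1B3* was higher in every siKIFC1 library without passing the test, and *ATP1B2* was near the lower limit of measurement in both groups. In control siRNA replicates 1 to 3, 2755, 2216 and 2843 *ATP1B1* counts were found, and in siKIFC1 replicates 1 to 3, 1375, 1177 and 1327. After scaling, the 3 siKIFC1 libraries were all below the 3 control libraries, a separation in the lower direction that 7.52% of all tested genes shared. Mean expression was 153.0 ± 13.4 CPM in the controls and 82.2 ± 5.21 CPM after knockdown (SD, n = 3). The log2 fold change was -0.90 (standard error 0.11, 95% interval -1.13 to -0.66), so that siKIFC1 libraries held 0.537 times the control level. Within replicate numbers 1, 2 and 3, the ratio of siKIFC1 to control CPM was 0.531, 0.559 and 0.525. As background, 55 of 14777 tested genes (0.372%) were lower at an adjusted p under 0.05 in edgeR's quasi-likelihood test. In RNA from whole cultures, fewer cells that make an mRNA and less of it per cell cannot be told apart.

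For *ATP1B3*, 2495, 2353 and 2557 counts were found in the control libraries and 2665, 2812 and 2744 in the siKIFC1 libraries. After scaling, the groups did not overlap, from 139.2 to 149.8 CPM with control siRNA and from 168.0 to 185.2 CPM with siKIFC1. Groups without overlap in the higher direction were found for 7.99% of all tested genes. Mean expression was 145.4 ± 5.50 CPM in the controls and 174.5 ± 9.36 CPM after knockdown (SD, n = 3). The log2 fold change was 0.26 (standard error 0.10, 95% interval 0.05 to 0.48), with an unadjusted p of 0.0212 and an adjusted p of 0.393 in edgeR's quasi-likelihood test. Across all tested genes, 9.26% had an unadjusted p under 0.05, 4.72% had one and were higher, and 0.325% were higher at an adjusted p under 0.05. The difference was in the same direction within each replicate number, with ratios of 1.14, 1.26 and 1.21.

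For *ATP1B2*, 25, 29 and 16 counts were found in the control libraries and 20, 39 and 16 in the siKIFC1 libraries. The groups overlapped, and siKIFC1 replicate 2 held the highest count. The summed counts were 70 (exact Poisson 95% interval 54.6 to 88.4) and 75 (59.0 to 94.0), intervals that cover counting error only. Mean expression was 1.40 ± 0.481 CPM in the controls and 1.61 ± 0.845 CPM after knockdown (SD, n = 3). The estimated log2 difference was 0.21 (standard error 0.40, 95% interval -0.67 to 1.08, adjusted p = 0.938 in edgeR's quasi-likelihood test). The interval holds both a fall and a rise, so the direction of any *ATP1B2* change was not resolved at these counts. Leaving out siKIFC1 replicate 2 gave an estimate of -0.30, and leaving out control siRNA replicate 3 gave -0.05.

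**Figure D1:**
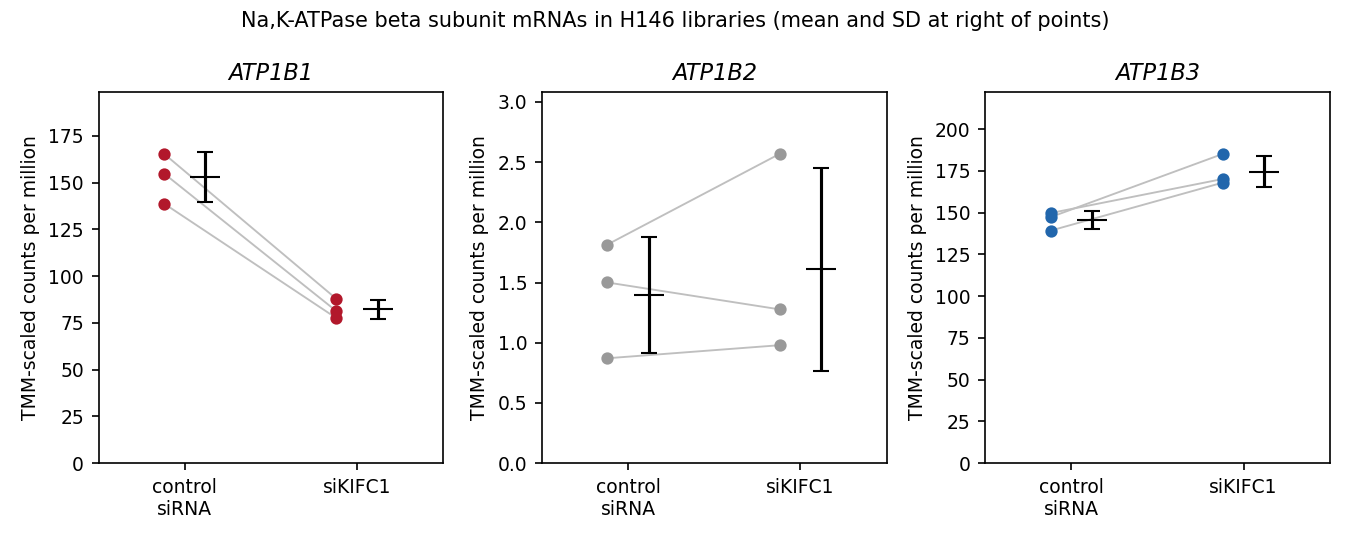
TMM-scaled CPM of each beta subunit mRNA in the 3 control siRNA and 3 siKIFC1 libraries, with a separate linear axis from 0 for each gene; grey lines join libraries with the same replicate number, and black marks give the mean and SD. *ATP1B1* points were all lower with siKIFC1, *ATP1B3* points were all higher, and *ATP1B2* points overlapped at levels of 2.57 CPM or less.

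Levels of different genes can be compared only per length, and the share of *ATP1B1* among the beta subunits depended on the length given to it. The union of all GENCODE 44 exons is 12290 bases for *ATP1B1*, 3464 for *ATP1B2* and 2617 for *ATP1B3*. The longest *ATP1B1* transcript in the union has 6406 bases, while its canonical transcript has 2216 bases. The canonical transcripts of *ATP1B2* and *ATP1B3* have 3341 and 1847 bases. RefSeq lists 1 curated mRNA for *ATP1B1* and 1 for *ATP1B3*. The annotation used for the counting is not named. The counts carry NCBI gene IDs, and the RefSeq *ATP1B1* gene ends at 169132719, while some GENCODE 44 transcripts of it run past that point. The *ATP1B1* exon union thus holds bases outside the RefSeq gene, over which reads may not have been counted. Such bases lower the *ATP1B1* level and share on the exon union scale. Levels are given with both lengths, the canonical one having been chosen after the data were seen.

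With the exon union, *ATP1B1* made up 18.2% ± 1.40 (SD, n = 3) of the summed beta subunit level with control siRNA, *ATP1B2* 0.587% ± 0.195 and *ATP1B3* 81.2% ± 1.24. With the canonical transcripts, the control shares were 46.5% ± 2.36 (SD, n = 3) for *ATP1B1*, 0.282% ± 0.101 for *ATP1B2* and 53.2% ± 2.28 for *ATP1B3*. *ATP1B3* was above *ATP1B1* in each control library on both length scales, by a small margin on the canonical scale (75.4 against 69.9 CPM per kb in replicate 3). *ATP1B2* was the lowest of the 3 by either length. After knockdown, the *ATP1B1* share was 9.08% ± 0.891 (SD, n = 3) with the exon union and 28.1% ± 2.18 with the canonical transcripts. The *ATP1B3* share was 90.3% ± 0.649 and 71.5% ± 2.03. These shares contain *ATP1B1* and follow from its choice, so no test was run on them.

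Whether the other beta subunits rose as *ATP1B1* fell was examined on the summed level of *ATP1B2* and *ATP1B3*, which does not contain *ATP1B1*. By exon union, the sum was 57.7, 56.8 and 53.5 CPM per kb in control siRNA replicates 1 to 3 and 65.4, 71.5 and 64.5 CPM per kb in siKIFC1 replicates 1 to 3. All siKIFC1 libraries were above all control libraries, and the mean was 19.9% higher. Nearly all of the sum was *ATP1B3*. The exact permutation test, two-sided over the 6 libraries, gave p = 0.1, which is the smallest that 3 against 3 libraries allow and cannot reach 0.05.

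The balance between loss and gain depended on the length. On the canonical scale, *ATP1B1* fell by 31.9 CPM per kb between group means, and *ATP1B2* and *ATP1B3* together were 15.8 CPM per kb higher, which is 49.4% of that loss. The sum of all 3 genes was then 148.2 ± 7.01 CPM per kb (SD, n = 3) with control siRNA and 132.0 ± 4.05 (SD, n = 3) with siKIFC1, a difference of -10.9%, and the groups did not overlap. On the exon union scale, *ATP1B1* fell by 5.76 CPM per kb and the other 2 genes were 11.2 CPM per kb higher, which is 193.7% of the loss. The sum was 68.4 ± 2.54 CPM per kb with control siRNA and 73.8 ± 3.54 with siKIFC1 (SD, n = 3), and the groups overlapped. The direction of the summed beta subunit level therefore turned with the length, and it was below control by the canonical transcript (-10.9%), the longest coding sequence (-11.7%) and CPM not divided by length (-13.9%), and above control by the exon union (7.89%) and the longest transcript (3.94%).

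**Figure D2:**
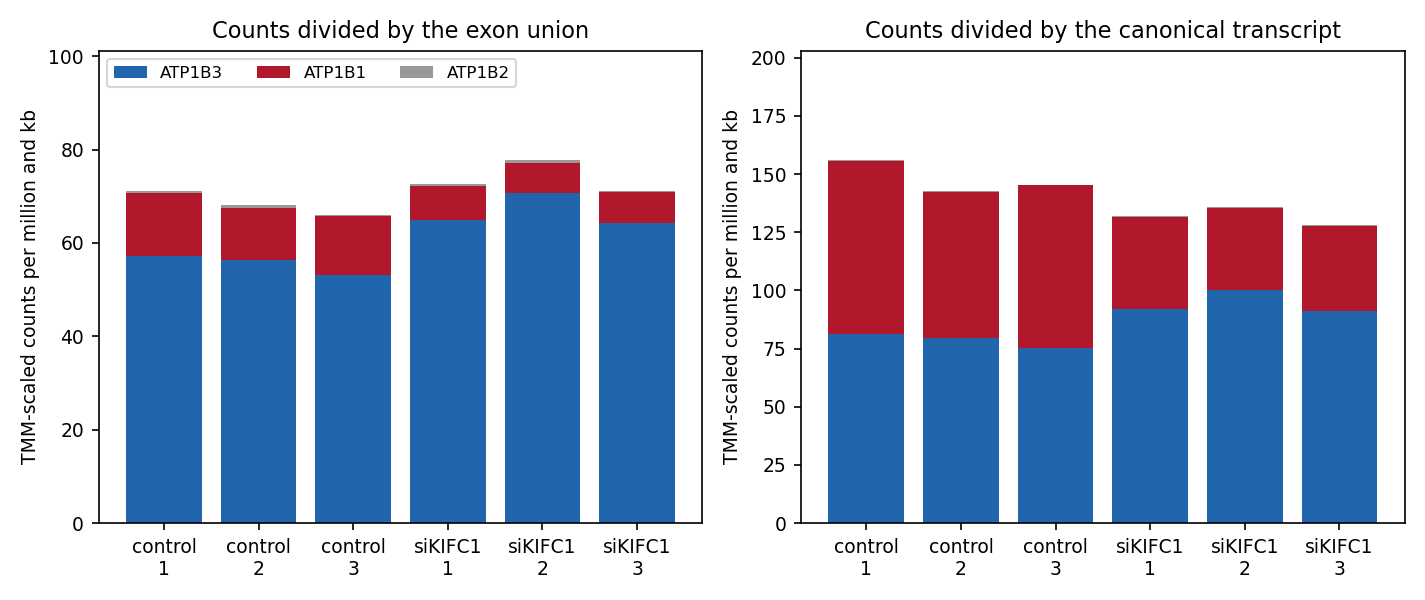
Stacked bars of *ATP1B3*, *ATP1B1* and *ATP1B2* levels (TMM-scaled CPM per kb, linear axes from 0) in each library, with counts divided by the exon union on the left and by the canonical transcript on the right. The red *ATP1B1* part shrank in every siKIFC1 library, while the whole bar of the siKIFC1 libraries stood among or above the controls on the left and below them on the right.

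*ATP1B4*, the remaining gene of the beta family, had 0 counts in every library. Of the 7 FXYD regulators, 2 passed the filter on low counts and 0 passed the test in edgeR, with 0 at an unadjusted p under 0.05. *FXYD6*, known from brain, was the one with high counts, at 168.5 ± 14.3 CPM in the controls and 171.0 ± 25.3 CPM after knockdown (SD, n = 3), and its log2 difference was 0.02 (standard error 0.13). *FXYD3* had 7 to 14 counts per library. Among the 4 NKAIN genes, whose products bind the pump, 2 passed the filter and both had estimates below 0. *NKAIN2* was at 60.0 ± 4.93 CPM in the controls and 47.4 ± 5.23 CPM after knockdown (SD, n = 3), without overlap. Its log2 difference of -0.34 (standard error 0.12) had an adjusted p of 0.342 in edgeR's quasi-likelihood test. With the replicate number as a block in edgeR the adjusted p was 0.0259, in a fit that called 407 higher and 454 lower genes of 14777. Of the related proton pump genes, only *ATP4B*, the beta subunit of the gastric pump, passed the filter, with 8 to 25 counts per library and an estimate of 0.76 (standard error 0.37, adjusted p = 0.569 in edgeR).

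**Figure D3:**
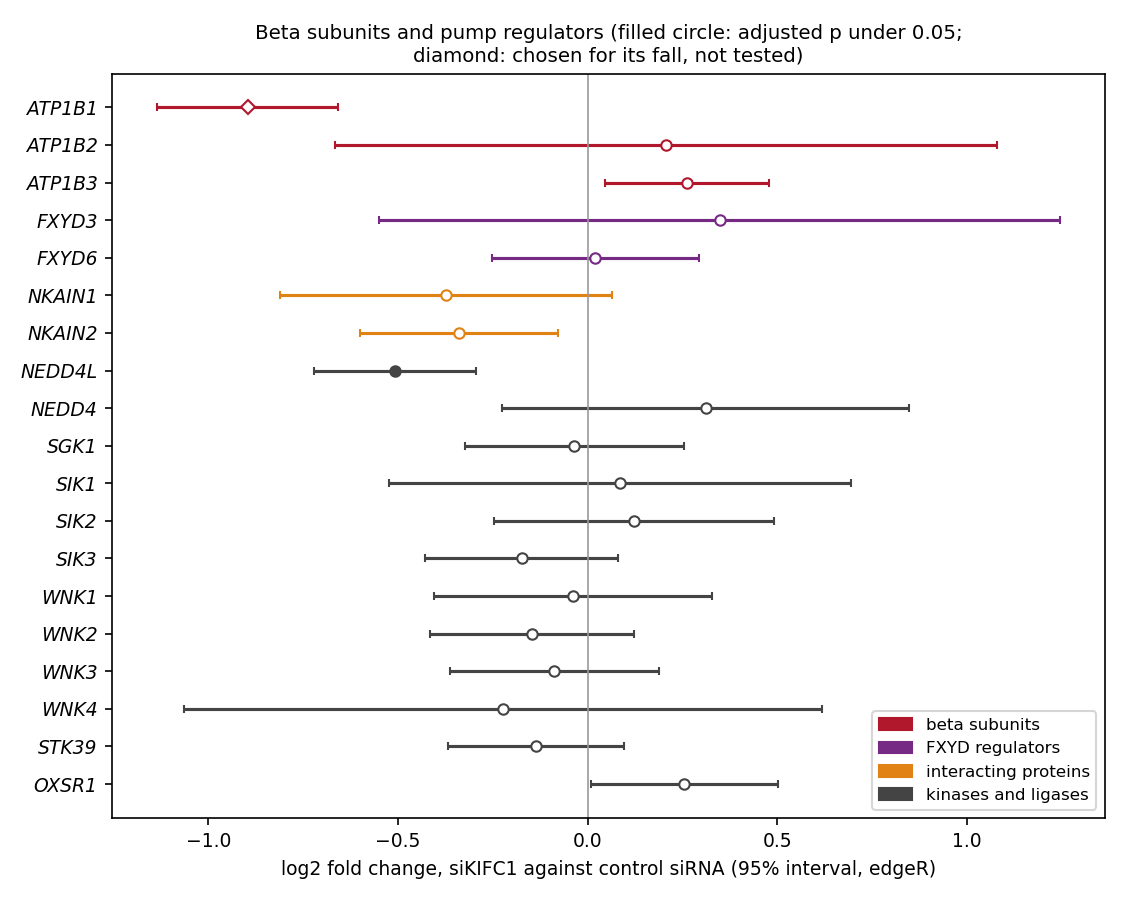
Log2 fold change (siKIFC1 against control siRNA, points) with 95% intervals (bars) from edgeR for the beta subunits, FXYD and NKAIN genes and regulatory kinases and ligases that passed the filter on low counts. The diamond is *ATP1B1*, chosen for its fall at -0.90, and the filled circle is *NEDD4L* at -0.51. The interval of *FXYD6* includes 0.

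Of the 79 genes in 9 lists around the pump, 59 passed the filter on low counts, and 0 were higher and 1 lower at an adjusted p under 0.05 in edgeR's quasi-likelihood test, against 0.697% of all tested genes in either direction. Their median log2 fold change was -0.04, with 23 above 0 and 36 below, and the median of all tested genes was 0.01. The lower gene was *NEDD4L*, a ubiquitin ligase known for removing the epithelial sodium channel from the membrane. Its control counts were 2169, 2088 and 2432 and its siKIFC1 counts 1491, 1337 and 1525, without overlap after scaling. Mean expression fell from 131.1 ± 1.17 to 92.2 ± 3.71 CPM (SD, n = 3). The log2 difference was -0.51, with a standard error of 0.10 and an adjusted p of 0.0416 in edgeR. With 1 library left out, the call held without siKIFC1 replicate 3 and was lost without any of the other 5, and over all alternatives the adjusted p ran from 0.000191 to 0.234.

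No other listed gene had an adjusted p under 0.05 in edgeR. Of the 59 genes, 7 had an unadjusted p under 0.05 in edgeR, where 9.26% of all tested genes had one. Among the 14 kinases and ligases that regulate the pump or sodium transport, 12 passed the filter, and *OXSR1*, a kinase downstream of the WNK kinases, was the only one besides *NEDD4L* at an unadjusted p under 0.05, with an estimate of 0.25 (standard error 0.11). Of the 20 transporters that use or share the sodium gradient, 17 passed the filter, with a median of -0.09 and 3 at an unadjusted p under 0.05. These were *SLC12A2* (the sodium-potassium-chloride cotransporter NKCC1, estimate -0.29, standard error 0.11, adjusted p 0.397 in edgeR and 0.0234 once replicates were blocked), *SLC4A8* (estimate -0.34, standard error 0.14) and *SLC20A2* (a phosphate transporter, estimate 0.35, standard error 0.12). The 8 of 9 calcium pump genes that passed the filter had a median of -0.04 and a range of -0.18 to 0.12, with 0 at an unadjusted p under 0.05. The 11 of 12 junction genes that passed the filter had a median of 0.00, with 0 at an unadjusted p under 0.05. Of the 9 listed transcription regulators, 6 passed the filter, with a median of 0.22. *SNAI2*, a zinc finger repressor, was at 11.3 ± 0.526 CPM in the controls and 16.6 ± 1.22 CPM after knockdown (SD, n = 3), with a log2 difference of 0.55 (standard error 0.14), an adjusted p of 0.114 in edgeR and of 0.00778 with the replicate block. The block fit called 407 higher and 454 lower genes of all 14777 tested. Among listed genes, block values are printed only where they were under 0.05.

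Among 11802 other genes with a mean log2 CPM of at least 2, the 5 with the highest Pearson r of log2 CPM with *ATP1B1* over the 6 libraries were *SLC35E1*, *FAM3C*, *ST6GALNAC5*, *SEPTIN3* and *RTN3*, with r from 0.989 to 0.991. All 5 had negative log2 fold changes, from -0.59 for *ST6GALNAC5* to -0.34 for *SEPTIN3*, and the likeness rests mainly on the same 2 groups of libraries. Over the same 6 libraries r with *ATP1B1* was -0.93 for *ATP1B3*. After each group's mean was removed, r was -0.30 for *ATP1B3*, and the 5 genes most like *ATP1B1* were *KCNK9*, *KCNJ3*, *ARHGEF2*, *ANKRD6* and *ZNF804A*, with r from 0.990 to 0.998. *KCNK9* and *KCNJ3* encode potassium channels. With 6 libraries that share 2 groups and their scaling, and 11802 genes compared, values this high are a ranking and carry no test.

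The estimates for *ATP1B1* and *ATP1B3* kept their direction under all 14 settings that were tried. For *ATP1B1* the log2 fold change lay between -0.96, without control siRNA replicate 2, and -0.84, without control siRNA replicate 1. For *ATP1B3* it lay between 0.21, without siKIFC1 replicate 2, and 0.29, without siKIFC1 replicate 3, and its adjusted p stayed at 0.0535 or more in each of them.

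**Figure D4:**
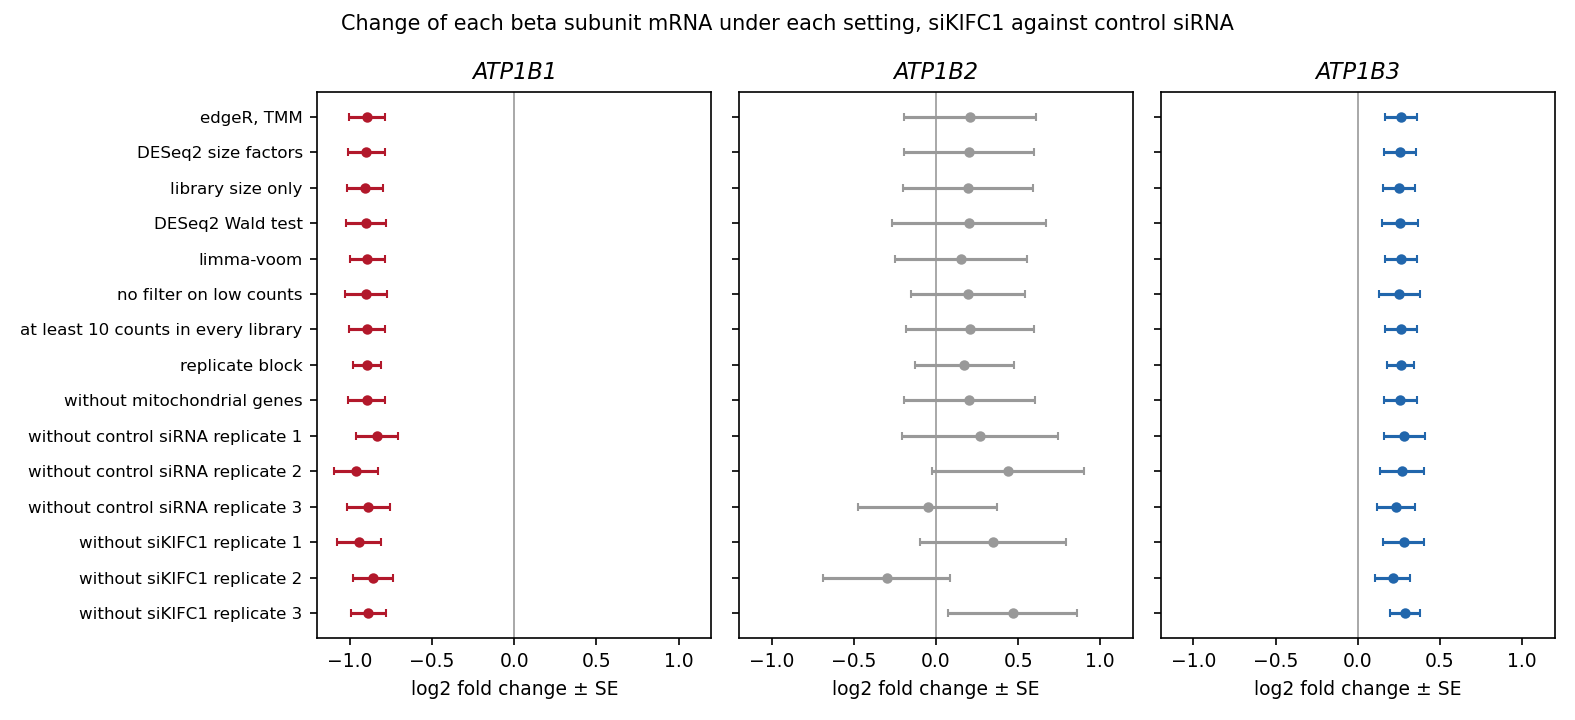
Log2 fold change with its standard error (horizontal axis, siKIFC1 against control siRNA) of each beta subunit mRNA under edgeR with TMM and the 14 alternative settings (vertical axis). *ATP1B1* points lie between -0.96 and -0.84, *ATP1B3* points between 0.21 and 0.29, and *ATP1B2* points between -0.30 and 0.47.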

How the data were processed

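The authors aligned reads of 6 libraries to GRCh38 with HISAT2 2.2.1, counted them per gene with featureCounts 2.0.8 and deposited whole, unnormalized counts, named by NCBI gene ID. Tool versions follow the methods and the submitters' processing notes. Of 28395 gene IDs, 27745 were matched to RefSeq symbols, and the 650 others held 0.0618% of the counts. siKIFC1 was compared with control siRNA by edgeR's quasi-likelihood test (edgeR 4.0.16, R 4.3.3), with TMM scaling and robust dispersions. Genes passed filterByExpr by group, *KIFC1* was kept in addition, and p-values of the 14777 genes were adjusted by Benjamini-Hochberg, with 0.05 as threshold. The study names DESeq2, which was run as an alternative. CPM use TMM-scaled library sizes over the tested genes. Standard errors were obtained from each estimate and its F statistic. The P values set the difference between the groups against the spread between these libraries. Summed levels were compared by an exact permutation test. The fit was tested on simulated data. Lengths, transcripts and 3′ UTRs came from GENCODE 44 (GRCh38), and word coordinates were read against the genome. Alternatives used DESeq2 1.42.0 and limma 3.58.1, and figures used Python 3.11.15 with matplotlib 3.10.9, pandas 2.3.3, numpy 2.4.6 and scipy 1.17.1.

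The members and gene lists were chosen with earlier results of these data known. Named genes are the 3 members, *ATP1B4*, list genes with an adjusted p under 0.05, the 5 genes most like *ATP1B1* by each measure, and *KIFC1*. *FXYD6*, *FXYD3*, *ATP4B*, *NME7*, *NEUROD1* and list genes at an unadjusted p under 0.05 were named in addition, after their values were seen. After removal of group means, libraries with the same replicate number correlated at 0.488, 0.386 and 0.454 over 11803 genes. Those with different numbers correlated at -0.424 to -0.0310, so a pairing by number was inferred from the data. The labels do not say what libraries of the same number shared. The edgeR test described above and the permutation test did not use the pairing, and the number entered as a block in an alternative fit only. Genes are not independent replicates. Some pump genes are not reported here.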

Additional observations from a re-analysis of the deposited data

How the results depend on the processing

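The replicate number as a block gave log2 fold changes of -0.89 for *ATP1B1*, 0.17 for *ATP1B2* (adjusted p = 0.826 in edgeR) and 0.26 for *ATP1B3* (adjusted p = 0.0535 in edgeR). It left *ATP1B2* and *ATP1B3* without a call. The block raised the genes called from 48 higher and 55 lower to 407 higher and 454 lower. DESeq2's Wald test called 125 higher and 145 lower genes, gave *ATP1B3* an adjusted p of 0.329 and gave *ATP1B2* no adjusted p. Without the filter on low counts, 121 genes were higher and 144 lower in edgeR. When single libraries were left out, from 9 (without control siRNA replicate 3) to 194 genes (without siKIFC1 replicate 3) were higher and from 15 to 274 lower, at the same 2 libraries. DESeq2 size factors, library size only, limma-voom, at least 10 counts in every library and leaving out mitochondrial genes kept both counts within 1.5 times. The log2 fold change of *ATP1B2* ran from -0.30 to 0.47 with 1 library left out, at 16 to 39 counts per library, and turned sign without siKIFC1 replicate 2 or control siRNA replicate 3. The control share of *ATP1B1* was 24.1% by the longest transcript, 47.7% by the longest coding sequence, 46.5% by the canonical transcript and 51.0% by CPM not divided by length, against 18.2% by the exon union. The change of the summed beta subunit level was -11.7% by the longest coding sequence, -10.9% by the canonical transcript and -13.9% by CPM not divided by length, against 7.89% by the exon union. By construction, these differ only in the length that divides the counts. With 1 library left out, the sum of *ATP1B2* and *ATP1B3* was from 16.0% to 22.3% higher, where 2 against 3 libraries allow no exact p under 0.2.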
